A study of Mus musculus with 8 samples.

Results

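Chemokine receptor mRNA was examined in neutrophils taken from mouse lungs 24 h after instillation of Streptococcus pneumoniae (SP), a common cause of bacterial pneumonia, or of phosphate-buffered saline (PBS). The genes described are 8 receptors, Cxcr2, Cxcr3, Cxcr4, Cxcr6, Ccr1, Ccr2, Ccr7 and Ccrl2. Their rows were found through the RefSeq identifiers in the deposited table of 24625 rows and 19836 distinct gene symbols. All 8 receptors were found, each on 1 row.

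The mice of both groups were wild type (WT) and, by the labels, 6 to 12 weeks of age, for which the study's methods give a narrower range. Each received either PBS or a suspension of SP through the trachea into the left lung, in a volume of 2.3 µl per g of body weight. Lung cells were bound with an antibody to Ly6G, a neutrophil surface protein, and collected on magnetic beads. According to the study's methods, purity was examined in the SP samples, on stained cells. There, the few other cells mostly looked like alveolar macrophages, and rarely like eosinophils. No purity is given for the PBS samples, and Ly6G mRNA is described as high in every sample. There were 4 PBS and 4 SP samples, each on 1 Affymetrix Mouse Gene 1.1 ST array. The study describes each sample as taken from a mouse, so the spread between samples is taken here as that between animals, which the labels themselves do not state.

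Chemokine receptors are membrane proteins that couple to inhibitory G proteins and steer leukocytes along gradients of secreted chemokines. Bound receptors activate phosphoinositide 3-kinase and Rac for movement, and are then silenced by receptor kinases, arrestins and RGS proteins. On neutrophils, CXCR2 draws cells out of the blood towards inflamed tissue, whereas CXCR4 holds them in the bone marrow and brings aged cells back to it. Others of the family are better known on T cells, monocytes or dendritic cells.

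In pneumonia, mRNA of 4 of the 8 receptors was higher and that of none was lower. The test was limma across all rows, and genes passed where the adjusted p did not exceed 0.05. Ccrl2 rose most, by 3.81-fold, followed by Cxcr3 (2.08-fold), Ccr2 (1.85-fold) and Cxcr6 (1.55-fold). The other 4, among them Cxcr2 and Cxcr4, did not pass the test, and this does not show that they were alike in the groups. Over all rows of the table, 44.1% passed the same threshold, 21.5% of rows with higher and 22.6% with lower values in SP. The members' share of 50.0% therefore lay close to the background. Ccrl2 and Cxcr3 also passed a 2-fold threshold, which 6.37% of all rows did with higher and 11.3% with lower values in SP. The 4 values of SP and the 4 of PBS did not overlap for 5 of the 8 receptors, against 49.0% of all rows. The median difference of the members was 0.62 log2 units, and that of all rows was 0.10.

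The values are log2 signals, and a log2 difference is SP minus PBS throughout. All samples carried strong signal on the 10 neutrophil markers, with a mean of 12.73 to 13.09 in PBS and 12.36 to 13.12 in SP. Of these markers, 3 fell in SP and none rose. Markers of other lung cells were also measured, with means of 11.78 to 12.27 in PBS and 10.30 to 11.21 in SP for 6 epithelial genes, which all fell, 10.24 to 11.16 and 8.88 to 9.96 for 6 endothelial genes, of which 4 fell, and 8.38 to 8.96 and 7.55 to 8.07 for 6 genes of alveolar macrophages, of which 3 fell and 1 rose. The part of such cells in the receptor values was not tested. The medians of the SP arrays lay at 5.78 to 5.91 and those of the PBS arrays at 6.06 to 6.20, a mean gap of -0.28, so that centring each array on its median moves every difference upwards. PBS replicate 2 was the lowest PBS sample in 6 of the 8 receptors and in 8 of the 10 neutrophil markers. It had the highest PBS values in all 6 epithelial and 5 of 6 endothelial markers. Values without it are therefore also given for receptors and other named genes that it moves across the adjusted p or 2-fold threshold, and for some others. The sizes of further differences also move without it, and not all of these are given. As the samples are bulk RNA, fewer cells of a type and less RNA per cell cannot be told apart.

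**Figure D1:**
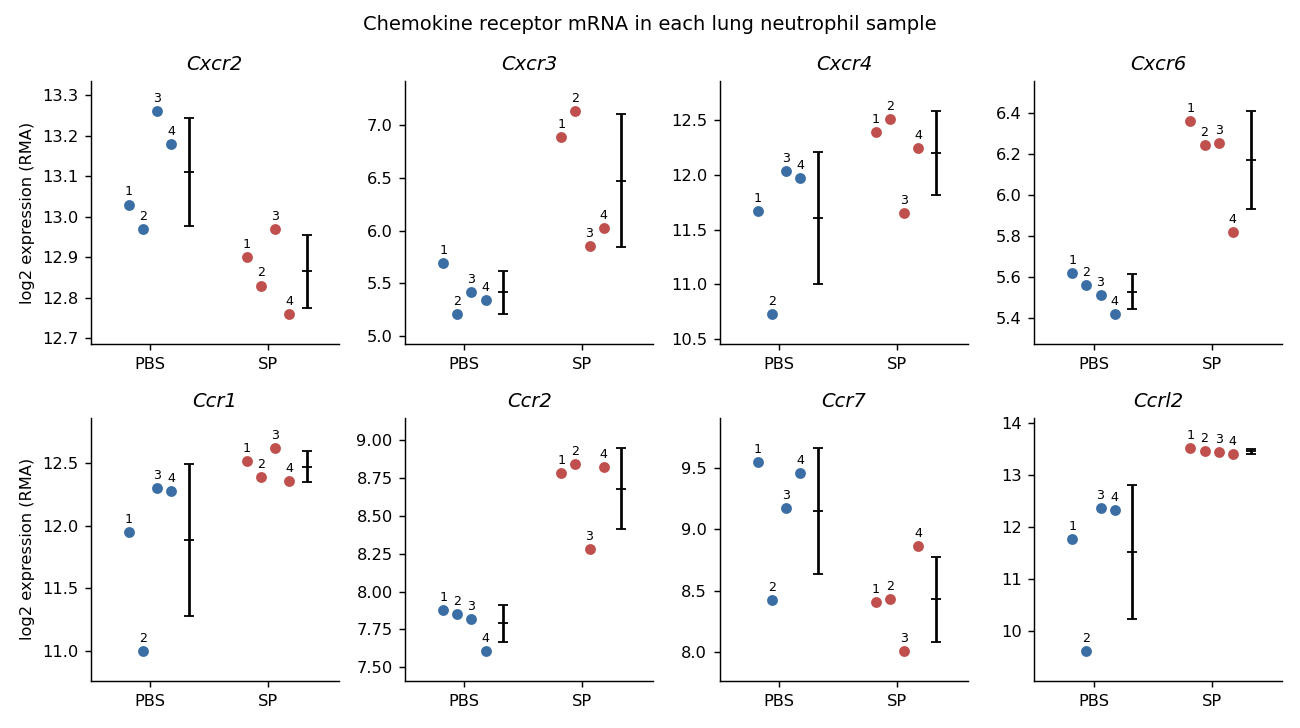
Log2 expression (RMA) of each of the 8 receptors on its own vertical axis, with 1 point per sample numbered by replicate (blue, PBS; red, SP) and bars showing mean ± SD (n = 4). PBS replicate 2 lies far below the other PBS samples in Cxcr4, Ccr1, Ccr7 and Ccrl2, and the groups are apart in Cxcr3, Cxcr6, Ccr1, Ccr2 and Ccrl2.

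The 3 largest rises that passed the test were those of Ccrl2, Cxcr3 and Ccr2, and their promoter sequences are shown for reference to the letters around their start sites. The windows come from RefSeq (GRCm38.p6) and run from 250 bases before to 50 bases after the start site, 5′ to 3′ on the gene's strand. The Ccrl2 window, the most upstream of 3 in RefSeq, is chr9:111057469-111057768 on the minus strand. That of Cxcr3 is chrX:101734098-101734397 on the minus strand, and that of Ccr2 is chr9:124101933-124102232 on the plus strand. Capitals mark matches to the motifs described next, on either strand.
Ccrl2: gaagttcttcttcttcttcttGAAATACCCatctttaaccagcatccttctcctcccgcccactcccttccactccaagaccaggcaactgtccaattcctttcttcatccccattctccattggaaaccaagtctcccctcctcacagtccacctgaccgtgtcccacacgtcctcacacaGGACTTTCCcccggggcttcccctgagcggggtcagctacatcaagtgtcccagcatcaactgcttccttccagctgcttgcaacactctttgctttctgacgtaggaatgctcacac
Cxcr3: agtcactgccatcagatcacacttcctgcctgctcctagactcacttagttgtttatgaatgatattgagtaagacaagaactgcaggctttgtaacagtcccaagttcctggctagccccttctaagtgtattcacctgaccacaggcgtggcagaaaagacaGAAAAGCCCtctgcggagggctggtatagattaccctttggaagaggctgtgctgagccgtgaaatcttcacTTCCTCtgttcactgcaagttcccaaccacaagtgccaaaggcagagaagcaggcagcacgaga
Ccr2: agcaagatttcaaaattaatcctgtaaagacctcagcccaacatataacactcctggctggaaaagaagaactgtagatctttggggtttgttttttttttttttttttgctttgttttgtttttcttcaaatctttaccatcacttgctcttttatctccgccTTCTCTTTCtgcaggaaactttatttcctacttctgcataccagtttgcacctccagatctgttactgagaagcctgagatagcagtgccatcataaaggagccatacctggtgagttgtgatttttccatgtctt

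Motifs were searched on both strands in 9 windows of 7 receptors, and in all 32851 windows of the RefSeq table. The NF-κB-like form GGNNTTTCC, which was added after the sequences had been seen, matched at position -68 of Ccrl2 (start site at 0) and in no other member window. It is present in 5.82% of all windows. A broader NF-κB-like form, GGGNNNTTC, matched in Ccrl2 at position -229, in Cxcr3 at -86, in Cxcr2 at -157 and in Cxcr4 at -223, thus in 4 of 9 member windows against 14.0% of all. The interferon response-like GAAANNGAA matched in Ccr2 at position -86 alone, and in 8.56% of all windows. The PU.1-like GAGGAA, a short motif held by 28.3% of all windows, was found in Cxcr2, Ccr1 and Cxcr3. No member window held the STAT-like TTCNNNGAA (8.30% of all), TGANTCA of AP-1 (7.81%) or the C/EBP-like TTGCNNAA (10.8%). A match is a run of letters and does not show binding.

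Cxcr2 (NM_009909), the receptor for the ELR+ chemokines, did not pass the test, and its difference was the smallest of the 8. Log2 values in PBS were 13.03, 12.97, 13.26 and 13.18, and in SP 12.90, 12.83, 12.97 and 12.76. The SP samples sat at or below the PBS samples, with SP replicate 3 level with PBS replicate 2. Means were 13.11 ± 0.13 in PBS and 12.87 ± 0.09 in SP (SD, n = 4). The difference of -0.24 (SE 0.09, 95% interval -0.45 to -0.04) missed the threshold at an adjusted p = 0.0562 by limma. It passed without PBS replicate 2 (-0.29, adjusted p = 0.0436) and without SP replicate 3 (-0.28, adjusted p = 0.0383), and turned to 0.04 with arrays centred on their medians. All 5 Cxcr2 ligands of the list had a row. Cxcl1 (2.94), Cxcl2 (0.57), Cxcl3 (3.54) and Cxcl5 (2.11) rose, and Ppbp, a platelet chemokine, fell by 2.13 log2 units. Without PBS replicate 2, the rise of Cxcl3 was 2.79 (6.93-fold, adjusted p = 0.00188).

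Cxcr4 (NM_009911), the receptor for Cxcl12, had PBS values of 11.67, 10.73, 12.04 and 11.97, and SP values of 12.39, 12.51, 11.65 and 12.25. The groups overlapped, since SP replicate 3 lay below 3 of the PBS samples. The means were 11.60 ± 0.60 and 12.20 ± 0.38 (SD, n = 4), with a difference of 0.60 (95% interval -0.11 to 1.31, adjusted p = 0.137 by limma). PBS replicate 2 differed by -1.16 log2 units from the mean of the other PBS samples, which had an SD of 0.19, and without it the difference was 0.31 (adjusted p = 0.265). Without both that sample and SP replicate 3, the difference was 0.49 (adjusted p = 0.0171). Centring arrays on their medians gave 0.88 (adjusted p = 0.0259). For Cxcl12, the difference was -0.61 (adjusted p = 0.279).

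Ccr1 (NM_009912) binds several CC chemokines and is present on neutrophils and monocytes. Its log2 values were 11.95, 11.00, 12.30 and 12.28 in PBS, and 12.52, 12.39, 12.62 and 12.36 in SP. The groups were separated by 0.07 log2 units only, and PBS replicate 2 again stood far below its group. Means were 11.88 ± 0.61 and 12.47 ± 0.12 (SD, n = 4), and the difference of 0.59 (95% interval -0.03 to 1.21) did not pass the test (adjusted p = 0.103 by limma). Without PBS replicate 2, it was 0.30 (adjusted p = 0.0827). With arrays centred on their medians, it was 0.87 (adjusted p = 0.0200). Of the 5 ligands assigned to it here, Ccl3 (2.34), Ccl5 (3.63), Ccl7 (3.17) and Ccl9 (1.12) rose in SP. The difference for Ccl6 was -0.08 (adjusted p = 0.754). The rise of Ccl9 was 0.91 (adjusted p = 0.0146), below 2-fold, without PBS replicate 2.

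Ccrl2 (NM_017466) is an atypical receptor that binds chemerin and presents it to other cells without signalling through G proteins. Its log2 values in PBS were 11.77, 9.62, 12.35 and 12.32, and in SP they were 13.51, 13.45, 13.43 and 13.40. Every SP sample lay above every PBS sample with a gap of 1.05 log2 units, and the SP samples were nearly equal. The means were 11.51 ± 1.29 and 13.44 ± 0.05 (SD, n = 4). The difference of 1.93 (SE 0.55, 95% interval 0.67 to 3.20) had an adjusted p = 0.0226 by limma. PBS replicate 2 differed from the mean of the other PBS samples by -2.53 log2 units, and without it the difference was 1.30 (adjusted p = 0.000487). The call was lost without SP replicate 1 (1.91, adjusted p = 0.0540) and by the test that the study's methods name (1.93, adjusted p = 0.0557). Rarres2, which encodes chemerin, fell by 2.19 log2 units (4.56-fold, adjusted p = 0.00152).

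Ccr2 (NM_009915), the receptor of inflammatory monocytes for Ccl2, showed PBS values of 7.88, 7.85, 7.82 and 7.61 and SP values of 8.78, 8.84, 8.28 and 8.82. The groups did not overlap, and SP replicate 3 was the lowest SP sample. Means rose from 7.79 ± 0.12 to 8.68 ± 0.27 (SD, n = 4), by 0.89 (SE 0.14, 95% interval 0.57 to 1.21, adjusted p = 0.00124 by limma). The ligands assigned to it here, Ccl2 (4.03), Ccl7 (3.17) and Ccl12 (2.84), rose in SP. Ccl8, a listed ligand assigned to no receptor here, differed by 0.57 and did not pass (adjusted p = 0.342 by limma). Ccr2 rose under every alternative that left out 1 sample, by 0.83 to 1.02. Of the markers listed for monocytes and interstitial macrophages, Ly6c2 and Ms4a4a had no matched row. The 5 markers used had a mean of 8.69 to 9.68 in PBS and 9.89, 9.84, 8.58 and 10.24 in SP replicates 1 to 4. Of them Adgre1 rose (1.27, and 0.95 without PBS replicate 2), and 4 did not pass the test. SP replicate 3 was the lowest SP sample for Ccr2, Cxcr3, Cxcr4, Ccr7 and this marker mean. That sample also had the lowest SP means of B cell (5.84), alveolar macrophage (7.55), dendritic cell (5.49), epithelial (10.3) and endothelial (8.88) markers. Its mean of neutrophil markers (13.12) was the highest in SP. It was not the lowest for NK cell markers (5.2) or for eosinophil and basophil markers (5.6). The part of these cells in the Ccr2 result was not tested.

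Cxcr3 (NM_009910) binds the interferon-induced chemokines Cxcl9 and Cxcl10 and is best known on activated T cells and NK cells. It measured 5.69, 5.21, 5.42 and 5.34 in PBS, and 6.89, 7.13, 5.85 and 6.02 in SP. The groups did not overlap, and SP replicates 1 and 2 stood above SP replicates 3 and 4. The means of 5.41 ± 0.20 and 6.47 ± 0.63 (SD, n = 4) differed by 1.06 (SE 0.29, 95% interval 0.40 to 1.72, adjusted p = 0.0184 by limma). Without SP replicate 1, the difference was 0.92 (adjusted p = 0.0523). It was 0.99 (adjusted p = 0.0470), below 2-fold, without PBS replicate 2. The mean of 7 T cell markers was 5.78 to 6.48 in PBS and 6.67, 6.93, 5.75 and 5.75 in SP replicates 1 to 4, with 2 markers higher and 1 lower in SP. That of 7 NK cell markers was 4.99 to 5.27 in PBS and 5.72, 5.65, 5.20 and 5.15 in SP, with 1 marker higher. Both marker means were highest in SP replicates 1 and 2, and their part in the Cxcr3 result was not tested. Both ligands with a row rose, Cxcl9 by 5.73 (adjusted p = 0.000124) and Cxcl10 by 4.75 (adjusted p = 0.000166). Without PBS replicate 2, Cxcl10 rose by 4.16 (17.9-fold, adjusted p = 1.67e-06).

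Cxcr6 (NM_030712), the receptor for Cxcl16 on T cells and NKT cells, measured 5.62, 5.56, 5.51 and 5.42 in PBS, and 6.36, 6.24, 6.25 and 5.82 in SP. The groups did not overlap, and SP replicate 4 was the nearest to PBS. The mean rose from 5.53 ± 0.08 to 6.17 ± 0.24 (SD, n = 4), by 0.64 (SE 0.12, 95% interval 0.36 to 0.91, adjusted p = 0.00362 by limma). Leaving out 1 sample gave 0.57 to 0.75, and the call held in all 8 cases. Cxcl16 rose by 1.10 (adjusted p = 0.00533). Cxcr3 and Cxcr6 were dim rows, with means over all samples below the median row mean of 6.07, and both were absent once dim rows were left out. The Y-linked genes Ddx3y, Kdm5d and Uty, given as a measure of background on these arrays, read 4.33 to 4.90. They measure background only if the mice were female. All 3 had higher means in SP, by 0.12, 0.19 and 0.18. Kdm5d passed the test (adjusted p = 0.0497 by limma), a call that was lost without PBS replicate 2 (adjusted p = 0.109).

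Ccr7 (NM_007719), which guides dendritic cells and lymphocytes to lymph nodes, was the only member other than Cxcr2 with a lower mean in SP. Its log2 values were 9.55, 8.42, 9.17 and 9.46 in PBS, and 8.41, 8.43, 8.01 and 8.86 in SP. PBS replicate 2 lay among the SP samples, and the other PBS samples lay above all of them. The means of 9.15 ± 0.51 and 8.43 ± 0.35 (SD, n = 4) differed by -0.72 (SE 0.27, 95% interval -1.34 to -0.11), with an adjusted p = 0.0577 by limma. Without PBS replicate 2, the difference was -0.97 (adjusted p = 0.00764), and without SP replicate 4 it was -0.87 (adjusted p = 0.0378). The replicate block gave an adjusted p = 0.0483. Markers of B cells, which carry this receptor, had means of 7.62 to 8.53 in PBS and 5.84 to 6.94 in SP, and all 6 fell. The mean of 7 dendritic cell markers was 5.47 to 6.00 in PBS and 5.49 to 5.71 in SP, with 2 higher and 2 lower. The part of these cells in the Ccr7 values was not tested. Ccl19, its ligand, rose by 2.20 (adjusted p = 0.00118).

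**Figure D2:**
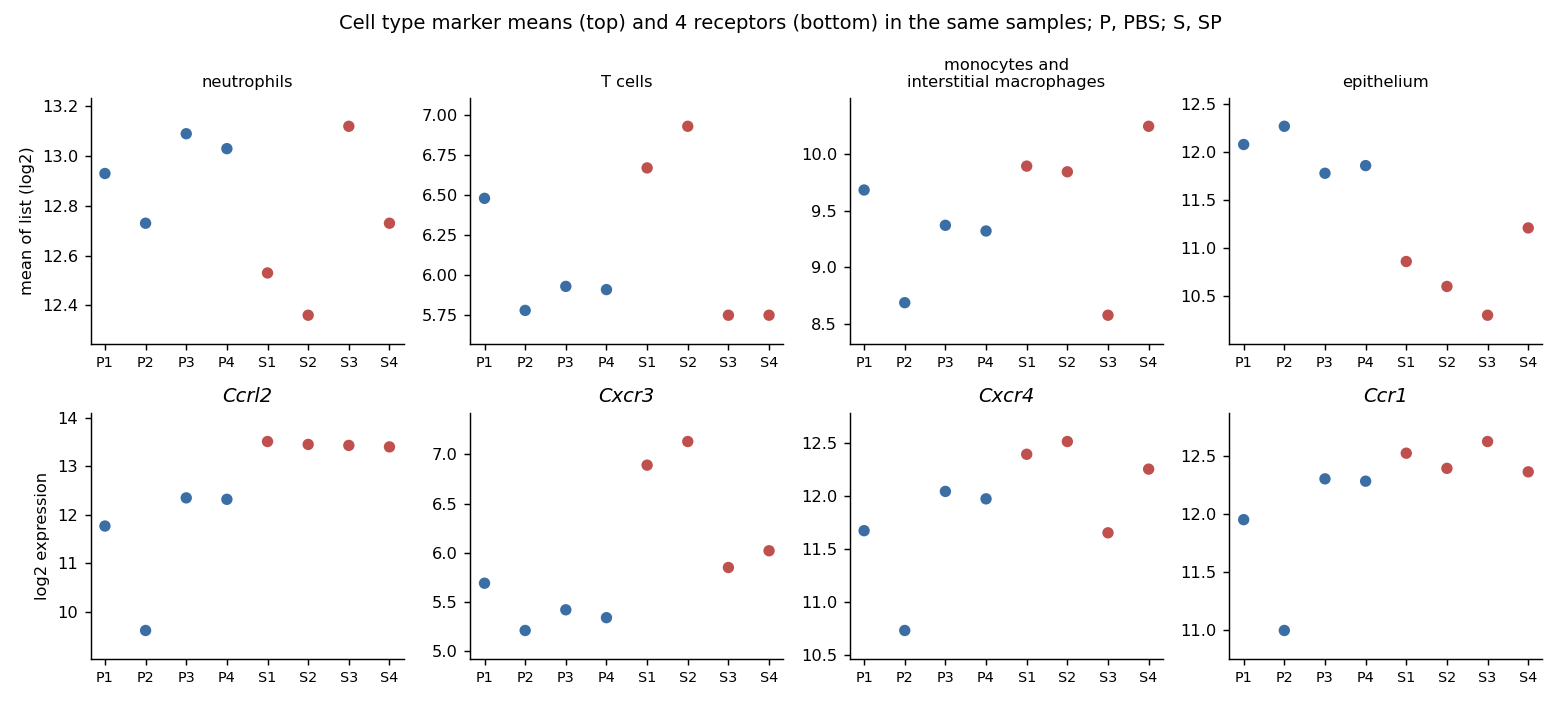
Means of 4 marker lists (top row) and levels of 4 receptors (bottom row) in log2 units in the same 8 samples, P1 to P4 for PBS and S1 to S4 for SP, each panel on its own axis. T cell markers and Cxcr3 were highest in S1 and S2, and P2 had the lowest PBS values of Ccrl2, Cxcr3, Cxcr4 and Ccr1 and the highest epithelial marker mean.

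The rest of the receptor family was measured on 14 further genes. Of these, 3 rose and 1 fell (28.6%, against 44.1% of all rows), and the means of 7 were higher and of 7 lower in SP. Ackr1, an atypical receptor that binds chemokines without signalling through G proteins, rose by 2.17 (4.49-fold, adjusted p = 2.62e-05 by limma). The part of cells other than neutrophils in this rise was not tested. Its values were 5.85, 6.05, 5.81 and 6.02 in PBS and 7.92, 8.11, 7.82 and 8.54 in SP, and the groups lay far apart. Also higher was Ackr3, an atypical receptor that scavenges Cxcl12, by 0.64 (adjusted p = 0.00466). Ccr9 had a difference of 0.64 (adjusted p = 0.142). The third to rise was Ccr10, by 0.34 (adjusted p = 0.0336), a call that was lost without PBS replicate 2 (0.35, adjusted p = 0.0612). Its values, 4.27 to 4.41 in PBS and 4.47 to 4.92 in SP, lay near those of the Y-linked genes (4.33 to 4.90). The gene that fell was the scavenger Ackr4, with a difference of -0.35 (adjusted p = 0.00981). It also lay close to that level, at 4.94 to 5.10 in PBS and 4.54 to 4.78 in SP. For Ackr2, another scavenger, the difference was -0.46 (adjusted p = 0.205).

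**Figure D3:**
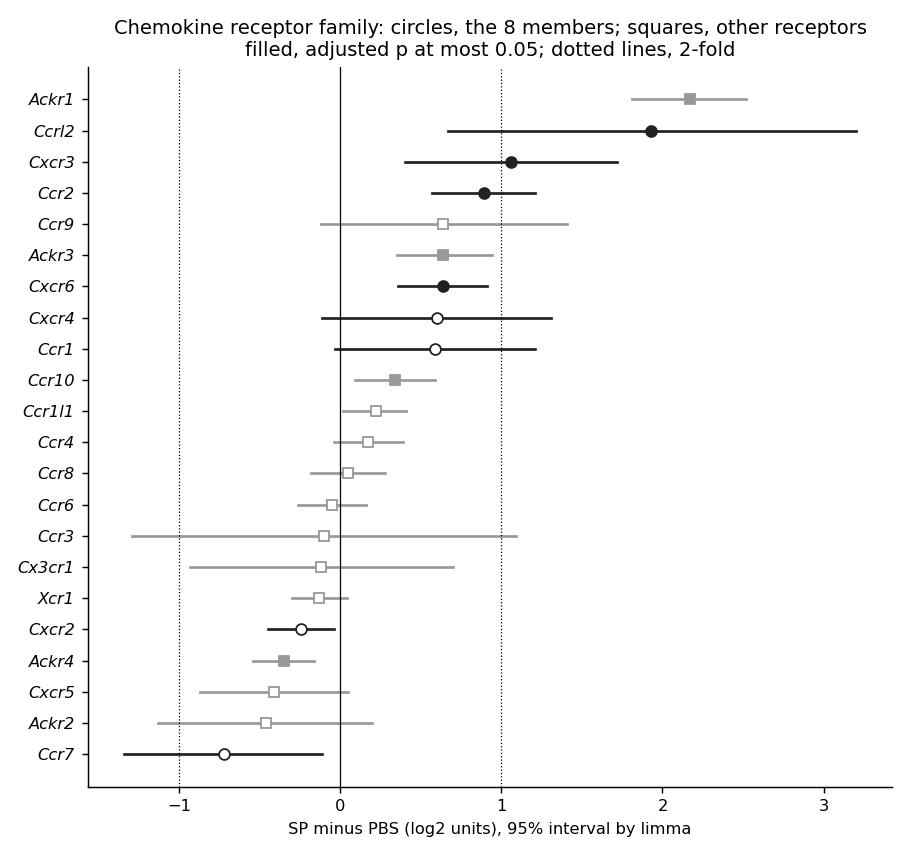
SP minus PBS differences (log2 units, 95% intervals by limma) of the 8 members (circles) and 14 other receptors (squares), with filled symbols for an adjusted p of at most 0.05 and dotted lines at 2-fold. Ackr1, Ccrl2 and Cxcr3 have the highest differences, and Ccr7 has the lowest, with an open symbol.

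Cxcr6, Ccr1 and Ccr2 lie in a cluster of receptor genes on chromosome 9, which allowed a look at their neighbours. In RefSeq (GRCm38.p6) the order of the genes is Ccr9, Fyco1, Cxcr6, Xcr1, Ccr1, Ccr1l1, Ccr3 and Ccr2. Among these 7 receptors, Cxcr6 and Ccr2 passed the test. Between Cxcr6 (0.64) and Ccr2 (0.89), Xcr1 differed by -0.13 (adjusted p = 0.181), Ccr1l1 by 0.22 (adjusted p = 0.0673) and Ccr3 by -0.10 (adjusted p = 0.873). Fyco1, which is no receptor, differed by 0.39 (adjusted p = 0.0737). Along the cluster, Ccr2 was thus separated from Cxcr6 by 4 receptor genes that did not pass the test.

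**Figure D4:**
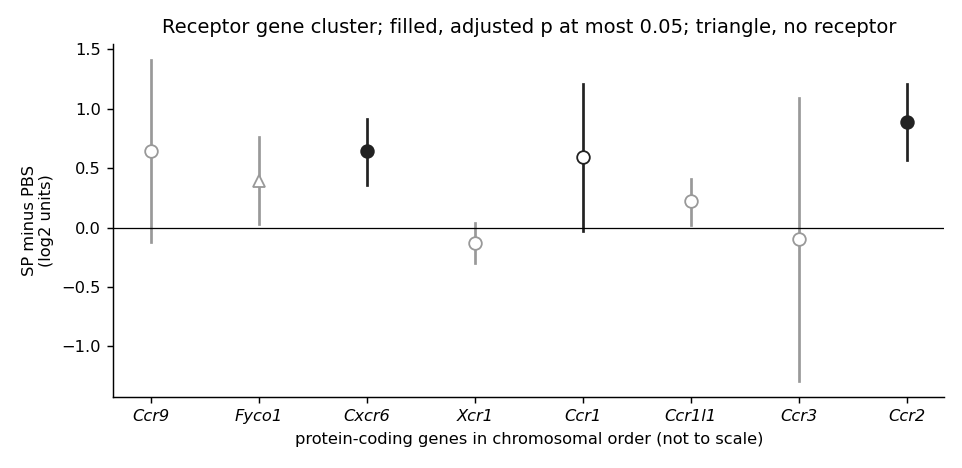
SP minus PBS differences (log2 units, bars for 95% intervals by limma) of neighbouring genes in chromosomal order, spaced evenly, with members in black, other genes in grey and filled symbols for an adjusted p of at most 0.05. Ccr2 at the right end has the highest difference, 0.89, and Xcr1 and Ccr3 have differences below 0.

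Most ligands of these receptors changed. Of 19 with a row, 14 rose and 2 fell (84.2%, against 44.1% of all rows). Of these, 13 rose and 2 fell by at least 2-fold, against 6.37% and 11.3% of all rows, and the median difference was 2.20. Values ranged from -2.19 for Rarres2 to 5.73 for Cxcl9. Ccl2, the ligand of Ccr2, rose 16.4-fold (adjusted p = 0.000111 by limma), and Ccl5, a ligand of Ccr1, 12.4-fold (adjusted p = 5.83e-05). Of the 14 genes that carry the signal from the receptors, 3 rose and 1 fell (28.6%, against 44.1% of all rows), with a median of 0.03. Pik3r5, the regulatory subunit of phosphoinositide 3-kinase gamma, rose by 1.39 (2.62-fold, adjusted p = 0.00444), and Elmo1, which acts with Dock2 on Rac, by 1.03 (2.05-fold, adjusted p = 0.000412). Elmo1 rose 1.97-fold (adjusted p = 0.00134) without PBS replicate 2. The G protein subunit Gng2 fell by 0.77 (adjusted p = 0.0209), a call that was lost with arrays centred on their medians (-0.49, adjusted p = 0.0884), with another quantile normalization (-0.49, adjusted p = 0.200), without PBS replicate 4 (adjusted p = 0.0571) and without SP replicate 1 (adjusted p = 0.0529). Prex1, an exchange factor for Rac, differed by -0.44 (adjusted p = 0.191), and without PBS replicate 2 by -0.69 (adjusted p = 0.0269).

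Of 13 genes that desensitise or limit the receptors, 2 rose and 5 fell (53.8%, against 44.1% of all rows), with a median of -0.45. Rgs16 rose by 2.21 (4.62-fold, adjusted p = 0.00183 by limma) and Rgs1 by 2.08 (4.24-fold, adjusted p = 0.00351), and both encode proteins that switch off G proteins. Rgs18 fell by 1.81 (adjusted p = 0.0155), and it encodes another member of that family. Arrb1, which encodes the β-arrestin 1 that binds phosphorylated receptors, fell by 1.40 (2.64-fold, adjusted p = 3.94e-05). Without PBS replicate 2, 11 of the 13 passed the test in place of 7, and 36.4% of all rows did. That sample was the lowest PBS sample in 11 of them, and its part in this was not tested.

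For each receptor, the genes with the most similar profile over the 8 samples were listed by the root mean square distance of row-centred log2 values. They were Ankrd44 (0.0522) for Cxcr2, Apbb1ip (0.0837) and Csf1r (0.0986) for Cxcr4, and Fyb (0.0643) and Csf2ra (0.0790) for Ccr1. For Cxcr3 they were 9130221H12Rik (0.0854) and Ms4a4b (0.107), for Cxcr6 Rec114 (0.0673) and Col9a3 (0.0755), and for Ccr2 Grn (0.0850) and Eml4 (0.0909). Ccr7 had Nrm (0.191) and Vps52 (0.202), and Ccrl2 had Lrrc25 (0.247) and Ebi3 (0.254). The distance ranks genes within 1 receptor only.

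**Figure D5:**
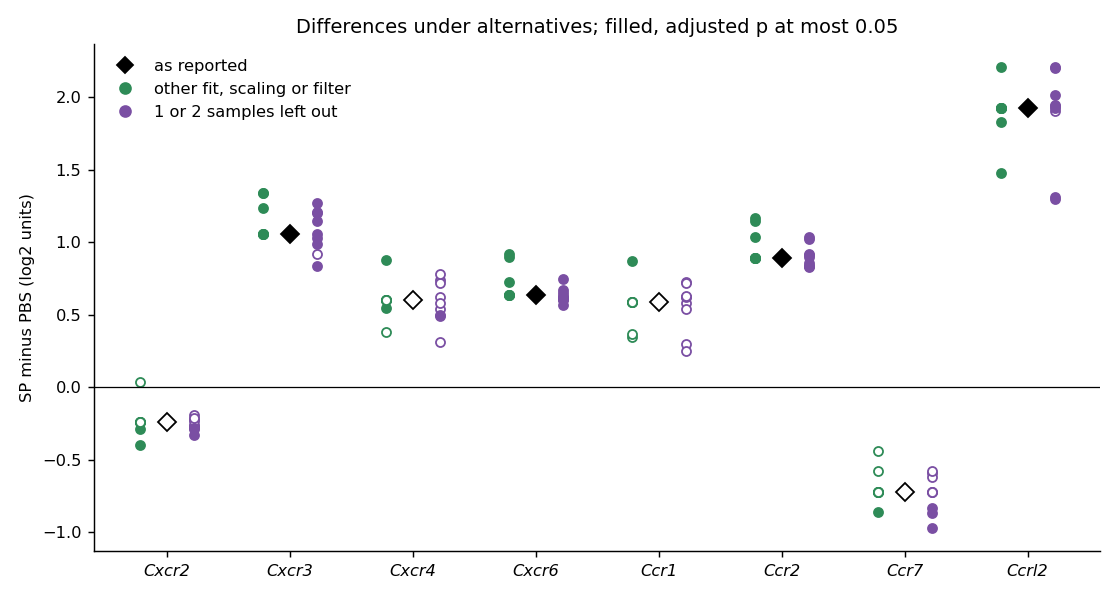
SP minus PBS differences (log2 units) of the 8 members as reported (black diamonds), under other fits, scalings and filters (green) and with 1 or 2 samples left out (purple), with filled symbols for an adjusted p of at most 0.05. Cxcr6 and Ccr2 are filled throughout, Ccrl2 ranges from 1.30 to 2.21, and Cxcr2 has 1 value above 0 (0.04).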

How the data were processed

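Total RNA of 4 PBS and 4 SP samples was hybridised, with groups and replicate numbers read from the titles. The authors made the deposited log2 values, as their methods describe, by robust multi-array averaging (RMA), with background correction, quantile normalization and median polish. The submitters' processing notes name Affymetrix Expression Console, RMA and Partek. Quantile normalization makes values relative within an array, and precision is limited by the number of arrays. All columns belonged to a sample (0 did not). Symbols came from RefSeq genes of GRCm38.p6 (80.9% of rows matched).

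All 24625 rows were fitted with limma 3.58.1 (R 4.3.3), two-sided, with Benjamini-Hochberg adjustment, after a test on simulated data. A gene passed at an adjusted p of at most 0.05, and 2-fold is 1 log2 unit. The members and lists were chosen with earlier results of these data known. Named were all members, the 4 largest differences of each other list, ligands by receptor, chromosomal neighbours and the 2 most similar genes per member. Adgre1, Ackr2, Ackr4, Ccr10, Ccl8 and the ligands beside their receptor were named after values were seen. A few genes that the rule or lists held are not reported here. Receptor Cxcr1 and ligands Cxcl11 and Ccl21a had no matched row and were not analysed here. The same held for the markers Trac, Ly6c2, Ms4a4a, Fabp4 and Foxj1 and the Y-linked Eif2s3y. Figures used Python 3.11.15. Alternatives were the methods' one-way ANOVA, another prior, array weights, the replicate block, other scalings, omission of dim rows, 1 row per symbol and omission of samples.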

Additional observations from a re-analysis of the deposited data

Results flagged for a closer look

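In 2 of 46 groups of 4 samples examined for the members and named genes, 1 sample stood apart by Dixon's ratio, for which chance flags about 1 in 20 groups (2.3 here). Ccr2 in SP replicate 3 was 8.28, against 8.78 to 8.84 in the other SP samples. Cxcl10 in PBS replicate 2 was 6.96, against 9.19 to 9.45 in the other PBS samples.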

How the results depend on the processing

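Cxcr6 and Ccr2 kept their direction and passed the test under every alternative in which they were tested, with Cxcr6 absent once dim rows were left out. With 1 sample left out, differences ranged from -0.29 to -0.19 (Cxcr2), 0.84 to 1.27 (Cxcr3), 0.31 to 0.78 (Cxcr4), 0.57 to 0.75 (Cxcr6), 0.30 to 0.73 (Ccr1), 0.83 to 1.02 (Ccr2), -0.97 to -0.58 (Ccr7) and 1.30 to 2.21 (Ccrl2), the members called from 2 to 6 and those at 2-fold from 0 to 3. The lowest counts, 2 and 0, came without SP replicate 1. In the same way 3 to 5 signal transducers (1 to 2 at 2-fold) and 6 to 11 desensitisation genes were called. Adjusted p over all alternatives ranged from 0.00173 to 0.804 (Cxcr2), 0.000733 to 0.0523 (Cxcr3), 0.0171 to 0.340 (Cxcr4), 0.0200 to 0.239 (Ccr1), 0.00445 to 0.145 (Ccr7) and 0.000487 to 0.0557 (Ccrl2). With array weights, Cxcr2 (-0.29), Cxcr4 (0.55) and Ccr7 (-0.86) also passed, and 7 members did in all. With arrays centred on their medians, Cxcr2 turned to 0.04, Cxcr4 (0.88) and Ccr1 (0.87) passed, and 7 other receptors and 7 signal transducers were called in place of 4 each. Another quantile normalization gave Cxcr2 -0.40, which passed, and 1 signal transducer at 2-fold in place of 2. Ccr7 (-0.72) passed with an intensity trend and robust prior (adjusted p = 0.0461) and with dim rows left out (0.0412), which left 1 member at 2-fold and 2 other receptors called. By the methods' one-way ANOVA, Ccrl2 (1.93) lost its call and 1 member stayed at 2-fold. Without both PBS replicate 2 and SP replicate 3, chosen after seeing the data, Cxcr2 (-0.33), Cxcr4 (0.49) and Ccr7 (-0.83) passed, and 7 members and 11 desensitisation genes, and 3 members at 2-fold and 3 signal transducers at 2-fold, were called. The cause of these shifts was not tested.

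With the replicate block, Ccr7 (-0.72) passed at an adjusted p = 0.0483 and no other member changed its call. Deviations of same-numbered samples correlated at -0.27 to 0.35, above 0.1 in 1 of 4 pairs. No consistent pairing by number was seen, which so few pairs cannot exclude. Of 15 other genes named for the largest differences of their lists, 12 kept direction and call under each alternative and 3 (Ccr9, Gng2 and Prex1) did not. Genes named outside that rule, such as Ccr10, are not among the 15. The precision is limited by the 8 arrays.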
